A study of Drosophila melanogaster with 9 samples.

Results

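The RNAs crosslinked to full-length Mei-P26 were set against those crosslinked to its NHL domain alone, in iCLIP2 libraries of Drosophila S2 cells. The comparison used the 3 full-length and the 3 NHL immunoprecipitations among the 9 libraries of the series, and the 3 control libraries served as background. In iCLIP2, UV light joins a protein to the RNA it touches and reverse transcription tends to stop there, so that each cDNA marks 1 crosslinked nucleotide. For each gene, the cDNAs at its crosslinked nucleotides were added up per library and set against all cDNAs of that library. The genes mei-P26 and Act5C were left out because the plasmids carry their sequence. Of the 6730 other genes with a cDNA in a bait library, 1802 had at least 10 cDNAs over the 6 libraries and were compared. Just inside this limit stood 170 genes with exactly 10 cDNAs, a median of 5 of them with full-length Mei-P26. Just outside stood 200 genes with 9 cDNAs, a median of 4 of them with full-length Mei-P26.

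The cells are named SL2 in the labels and S2R+ in the description of their culture, both names of a line from fly embryos with features of blood cells. They received plasmids for FLAG-tagged full-length Mei-P26 or for its NHL domain, residues 908 to 1206, driven by the Actin 5C promoter. Transfection used 15 µg DNA per dish and lasted 48 h, and the cells were then irradiated with UV light at 300 mJ/cm² according to the labels, while the methods of the study name a lower dose. Lysates were treated with 10 U RNase I and precipitated with an anti-FLAG antibody. The control cells were not transfected according to the design text and the methods. The treatment text that all samples share names proteins with reduced RNA binding as control, so the sources used here differ on this point. Each group had 3 biological replicates. Both proteins were made from plasmids in a cell line, and the amount of each bait was not measured here. Since each library was scaled to its own total, a higher share of one RNA and a lower share of the others cannot be told apart.

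Mei-P26 belongs to the TRIM-NHL proteins, which carry a RING finger, B-boxes and a coiled coil in front of a propeller-shaped NHL domain that binds RNA. In the fly ovary it is known for its part in the differentiation of germline stem cells and for the repression of mRNAs such as that of nos, together with the partners Bam, Bgcn and Sxl. The small nucleolar RNAs (snoRNAs) met below guide modification of ribosomal RNA: H/ACA snoRNAs guide the conversion of uridine to pseudouridine, and C/D snoRNAs guide ribose methylation. Most of them lie in introns of host genes in flies.

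Library depth limited each comparison. The full-length libraries held 14685, 1878 and 21831 cDNAs in replicates 1 to 3, the NHL libraries 4321, 7947 and 40032, and the control libraries 849 to 1252. Full-length replicate 2 was the shallowest bait library and had no cDNA in 61.1% of the 1802 genes, against 3.05% and 6.66% in its sister libraries. It also stood apart in content. Of its 26 mei-P26 cDNAs, 57.7% (exact 95% confidence interval 36.9% to 76.6%) fell within the stretch where NHL libraries have the central 95% of their own mei-P26 cDNAs. In the other full-length libraries this share was 19.0% of 506 and 20.3% of 266 cDNAs. A transcript of the NHL plasmid in that library was not tested for. Class shares, gene counts, ribosomal protein medians and breadth are therefore also given without this library. Of 12 blood cell markers, 9 had cDNAs in the bait libraries, 443 in all, while He, Hml and NimC1 had none. Of 9 germline markers, only aub and AGO3 had cDNAs, 10 in all, and vas, nos, bam, bgcn, osk, piwi and zpg had none. Of 5 neuron markers 4 had cDNAs, 11 in all. These are crosslinked RNAs and not expression levels.

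The first question was which classes of RNA each bait took. With full-length Mei-P26, protein-coding genes held more of the cDNAs, and with the NHL domain small non-coding RNAs held more. Protein-coding genes took 83.3%, 70.3% and 80.4% of the cDNAs of the full-length libraries and 60.4%, 61.4% and 68.2% of those of the NHL libraries. The mean was 78.0% ± 6.78 (SD, n = 3) against 63.3% ± 4.27 (SD, n = 3), and the groups did not overlap. Without full-length replicate 2 the full-length mean was 81.8%. The control libraries lay between them at 71.7% ± 5.60 (SD, n = 3). SnoRNAs, scaRNAs (guides for the RNAs of the spliceosome) and snRNAs together took 3.02%, 10.0% and 2.96% with the full-length protein and 17.7%, 17.2% and 12.1% with the NHL domain. The ratio of the means was 2.94, the groups did not overlap, and full-length replicate 2 was the library nearest to the NHL libraries. Without it the full-length mean was 2.99% and the ratio 5.24. The controls held 8.31%, 8.53% and 13.0%, above full-length replicates 1 and 3.

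By the ratio of means, H/ACA snoRNAs differed most among the classes with over 1% of the cDNAs in either group. They took 0.640%, 2.29% and 0.591% of the full-length libraries and 6.50%, 3.41% and 4.03% of the NHL libraries, a ratio of means of 3.96. C/D snoRNAs took 0.463%, 2.66% and 0.623% against 3.31%, 4.40% and 3.16%, a ratio of 2.90. Full-length replicate 2 set the size of both ratios, which were 7.55 for H/ACA and 6.67 for C/D snoRNAs without it, with full-length means of 0.616% and 0.543%. With and without it, each NHL library was above each full-length library, and the control means of 3.00% and 2.23% lay between the baits. The snRNAs of the spliceosome and of other nuclear particles took 1.60% ± 0.877 (SD, n = 3) against 4.54% ± 1.98 (SD, n = 3), and these groups overlapped at full-length replicate 2. For tRNAs the means were 1.01% ± 0.518 and 2.53% ± 1.16 (SD, n = 3 each), with an overlap at the same library. Without it the full-length means were 1.10% for snRNAs and 0.713% for tRNAs, and neither class overlapped. RNA of the mitochondrial genome took 6.97% ± 2.72 against 8.08% ± 0.431 (SD, n = 3 each) and differed by less than the spread of the full-length libraries. That spread came from full-length replicate 2, at 10.1% against 4.95% and 5.90% in its sister libraries. Without it the difference grew from -1.11 to -2.65 percentage points and the groups did not overlap. ScaRNAs took 0.269% against 0.241% and also overlapped.

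With 3 libraries against 3, a two-sided exact permutation test cannot give a p below 0.1. This value was reached for protein-coding genes, rRNA and the 3 kinds of snoRNA, and after Benjamini-Hochberg adjustment over 13 classes it was 0.26. The class shares are thus a description of separated groups and passed no threshold.

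**Figure D1:**
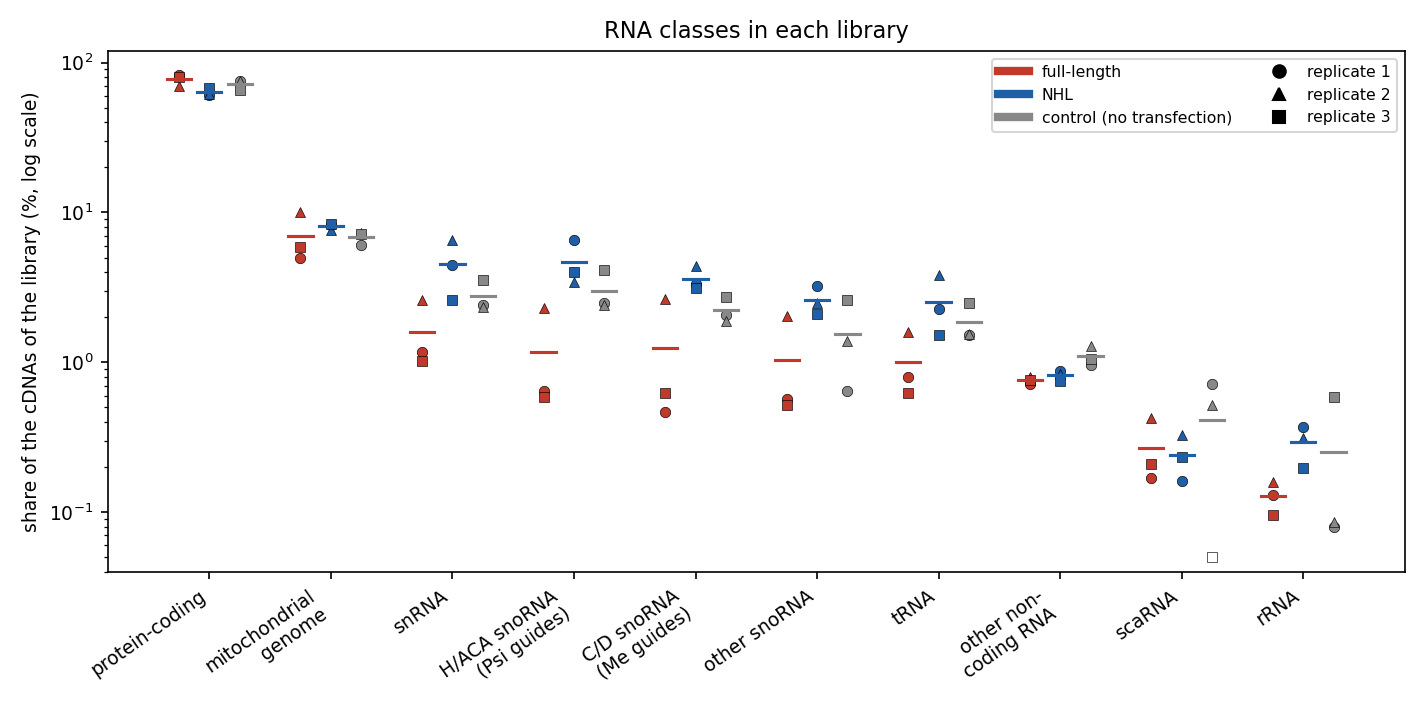
Share of the cDNAs of each library (%, log scale) in 10 RNA classes. Red, blue and grey symbols are the full-length, NHL and control libraries, symbol shapes are replicates, bars are group means, and the open symbol is a library listed at 0. The 3 NHL libraries lie above the 3 full-length libraries in all 3 kinds of snoRNA, and full-length replicate 2 (red triangle) is the full-length library nearest to them.

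The second question was which genes differed. By edgeR (quasi-likelihood test, p-values adjusted after Benjamini-Hochberg), 50 of the 1802 genes passed the threshold of 0.05. With the NHL domain 47 genes were higher, 2.61% of those tested, and with the full-length protein 3 genes, 0.166%. Of the 47 genes, 33 were snoRNAs, snRNAs, tRNAs or rRNA, and 32 of the 47 had no overlap between the 3 NHL and the 3 full-length libraries, as against 7.49% of all tested genes. In the other direction 6.38% of the tested genes had no overlap. At an unadjusted p below 0.05 stood 7.05% of the genes in the NHL direction and 5.72% in the full-length direction. In 33 of the 47 genes the control mean lay between the means of the baits, in 6 it was above both and in 8 below both. The 3 genes higher with the full-length protein, sty, CrebA and cpb, all code for proteins. Their control mean lay between the baits in 2 and below both in 1. Fold changes below are log2 values of full-length over NHL, and their median over all tested genes was 0.31. Scaling by TMM moved this median to 0.10.

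The number of calls changed with the library left out. It was 3 and 68 genes (full-length and NHL higher) without full-length replicate 2, 0 and 11 without full-length replicate 1, 0 and 4 without full-length replicate 3, 1 and 35 without NHL replicate 1, 0 and 28 without NHL replicate 2, and 2 and 44 without NHL replicate 3, the deepest library. Of the called genes, 6.00% were higher with the full-length protein. TMM scaling alone gave 1 and 42 genes (2.33%), and edgeR's own filter alone, which keeps 193 genes, gave 3 and 38 (7.32%). Filter and TMM together gave 30 and 26 (53.6%), with the median of the 193 genes at 0.09, against -0.50 for the same genes on the scale of all cDNAs.

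**Figure D2:**
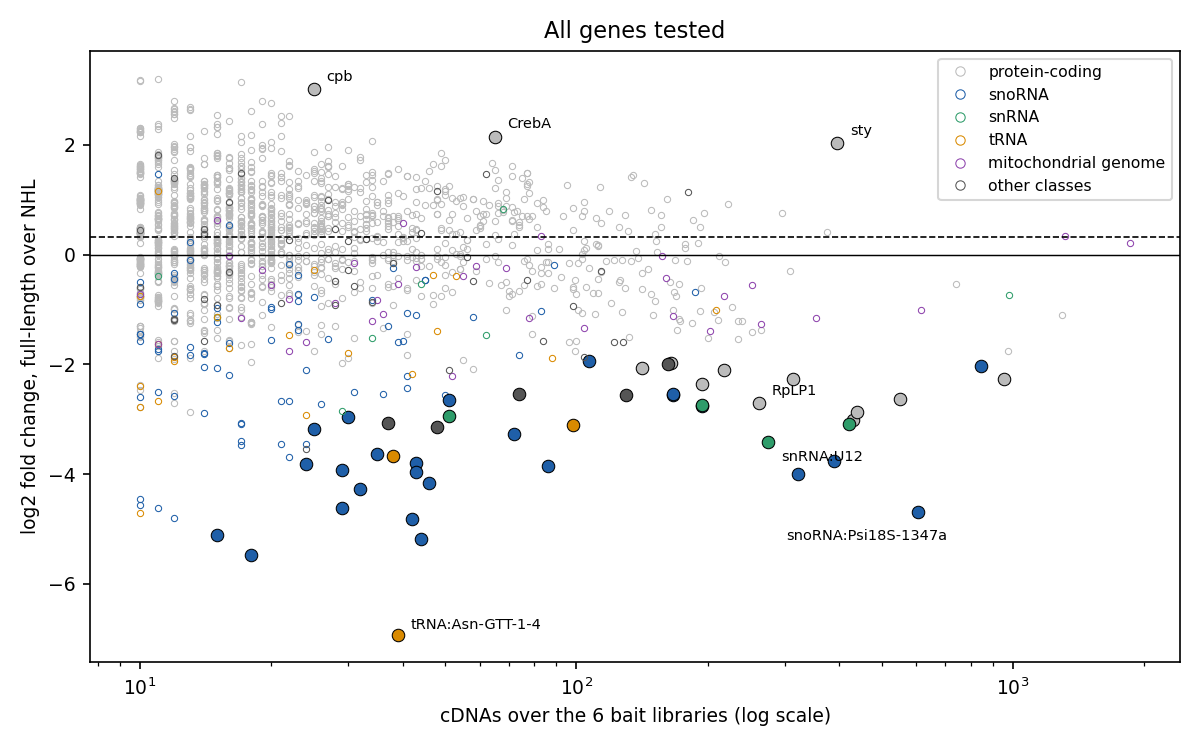
Log2 fold change (full-length over NHL) of the 1802 genes against their cDNAs over the 6 bait libraries (log scale). Filled large symbols passed the edgeR test, colours are RNA classes, the dashed line is the median of all genes at 0.31 and the solid line is 0. The 25 snoRNAs that passed all lie below the line, and the 3 genes that passed above it code for proteins.

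Among the small RNAs, snoRNAs stood out by number. Of 98 snoRNAs tested, 25 were higher with the NHL domain (25.5%, beside 2.61% of all tested genes) and 0 with the full-length protein. Of the 98, 95 had a log2 fold change below 0. Their median was -2.06. The 25 comprised 12 of 41 H/ACA guides, 8 of 33 C/D guides and 5 of 24 others.

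The snoRNA with the smallest p was snoRNA:Psi18S-1347a on chromosome 2R, by its name a guide for pseudouridine in 18S rRNA. It had 3, 4 and 9 cDNAs with the full-length protein and 83, 68 and 439 with the NHL domain. Per 10000 cDNAs of the library this made 2.04, 21.3 and 4.12 against 192, 85.6 and 110, and each NHL library was above each full-length library. The log2 fold change was -4.69 ± 0.71 (SE) and the adjusted p 8.2e-08 in edgeR's quasi-likelihood test. The 3 controls held 31.9 to 82.4 per 10000, above every full-length library, although each rests on 4 to 7 cDNAs. This call held without any single library.

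Other H/ACA guides gave the same order. snoRNA:Psi28S-2562, in the host gene RpS20, had 0, 6 and 5 cDNAs against 32, 43 and 235, a log2 fold change of -4.01 ± 0.69 (SE), with an adjusted p of 4.3e-06 (edgeR). Of its 11 full-length cDNAs, 6 came from replicate 2, the shallowest library, and the call was lost without full-length replicate 1 or 3 (highest adjusted p 0.093). snoRNA:Psi18S-1389b had a single cDNA with the full-length protein and 11, 12 and 20 with the NHL domain, a call lost without full-length replicate 3 (adjusted p = 0.067, edgeR). snoRNA:Psi18S-1377c had none with the full-length protein and 0, 3 and 12 with the NHL domain, so that 1 NHL library matched the full-length libraries at 0. Over the pooled NHL libraries it was at least 3.67-fold higher against a floor of 3 cDNAs over the full-length group, and its call was lost without any one of full-length replicates 1 and 3 and NHL replicates 2 and 3 (adjusted p up to 0.44).

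Among the C/D guides, snoRNA:Me18S-C1968 was the most crosslinked, with 34, 17 and 61 cDNAs against 72, 159 and 502. Per 10000 cDNAs this made 23.2, 90.5 and 27.9 against 167, 200 and 125, so the groups did not overlap (log2 fold change -2.04 ± 0.61, SE; adjusted p = 0.035, edgeR). Its call was lost without full-length replicate 1 or 3 or NHL replicate 1 or 2, with adjusted p-values up to 0.47. snoRNA:Me28S-A982a had no cDNA with the full-length protein and 3, 2 and 13 with the NHL domain, at least 4.40-fold higher against the same floor, and its call was lost without any one of full-length replicates 1 and 3 and NHL replicates 1 and 3 (adjusted p up to 0.31). snoRNA:Tudor-SN-a, counted among the other snoRNAs, had 8, 4 and 11 against 55, 85 and 226 (log2 fold change -3.77 ± 0.65, SE), a call lost without full-length replicate 3 (adjusted p = 0.054, edgeR).

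Of 12 snRNAs tested, 4 were higher with the NHL domain and 0 with the full-length protein, beside 2.61% and 0.166% of all 1802 genes. The clearest was snRNA:U12 on chromosome 3L, the RNA of the minor spliceosome that recognizes the branch point. It had 6.13, 5.32 and 6.87 cDNAs per 10000 with the full-length protein and 99.5, 79.3 and 36.0 with the NHL domain, a log2 fold change of -3.42 ± 0.61 (SE) with an adjusted p of 8.1e-06 (edgeR). snRNA:LU had 10.9, 10.6 and 16.9 against 123, 191 and 40.0, and snRNA:U7, which acts in the processing of histone mRNAs, had 6.13, 10.6 and 5.04 against 16.2, 79.3 and 25.5. In all 3 snRNAs the groups did not overlap, and the calls of snRNA:U12 and snRNA:LU held without any single library. That of snRNA:U7 was lost without full-length replicate 3 or NHL replicate 2 (adjusted p up to 0.15, edgeR). The most crosslinked snRNA was snRNA:7SKa, the RNA that holds the elongation factor P-TEFb inactive. Its rates were 55.2, 202 and 55.0 against 153, 196 and 129, and its log2 fold change of -0.74 ± 0.59 (SE) did not pass. Without full-length replicate 2, the library at 202, it was called at -1.53 (adjusted p = 0.032, edgeR).

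Of 24 tRNA genes, 3 were higher with the NHL domain (beside 2.61% of all tested genes), and 23 had a log2 fold change below 0. tRNA:Asn-GTT-1-4 had no cDNA in any full-length library and 4, 15 and 20 with the NHL domain, at least 9.54-fold higher against the floor of 3 cDNAs over the group. Its controls held 1, 1 and 0 cDNAs. tRNA:Lys-TTT-1-1 had 2.04, 5.32 and 1.83 cDNAs per 10000 against 18.5, 25.2 and 15.5, a call lost without full-length replicate 3 (adjusted p = 0.12, edgeR). Its control mean of 20.3 per 10000, from 4, 2 and 1 cDNAs, was near the NHL mean of 19.7 and above the full-length mean of 3.07. Copies of a tRNA gene are nearly identical, so the copy a cDNA came from is uncertain, and both genes stand for their kind of tRNA.

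The crosslinks on several of these small RNAs were concentrated, and on others less so. Within 5 nt of the main NHL nucleotide lay 27.1% of 310 NHL cDNAs on snoRNA:Psi28S-2562. This share was 31.0% of 733 on snoRNA:Me18S-C1968 and 23.8% of 739 on snRNA:7SKa. On snoRNA:Psi18S-1347a, 183 of 590 NHL cDNAs marked 1 nucleotide, chr2R:18142833, and 60.7% lay within 5 nt of it. Of the 16 full-length cDNAs, 18.8% lay there, which is 3 cDNAs. On snRNA:U12, 61 of 250 NHL cDNAs marked chr3L:16653946 and 68.0% lay within 5 nt, and this window also held 15 of the 25 full-length cDNAs. On snRNA:LU the window around chr2L:3046846 held 71.2% of the 365 NHL cDNAs and 30.9% of the 55 full-length cDNAs. tRNA:Lys-TTT-1-1 had 97.8% of 90 NHL cDNAs and 75% of 8 full-length cDNAs within 5 nt of chr2L:8290760. On snoRNA:Tudor-SN-a, 68.6% of 366 NHL cDNAs and 52.2% of 23 full-length cDNAs lay within 5 nt of chr3L:260084. Both baits thus marked the same place on snRNA:U12, snoRNA:Tudor-SN-a and, with only 8 full-length cDNAs, tRNA:Lys-TTT-1-1. The few full-length cDNAs on snoRNA:Psi18S-1347a were spread.

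**Figure D3:**
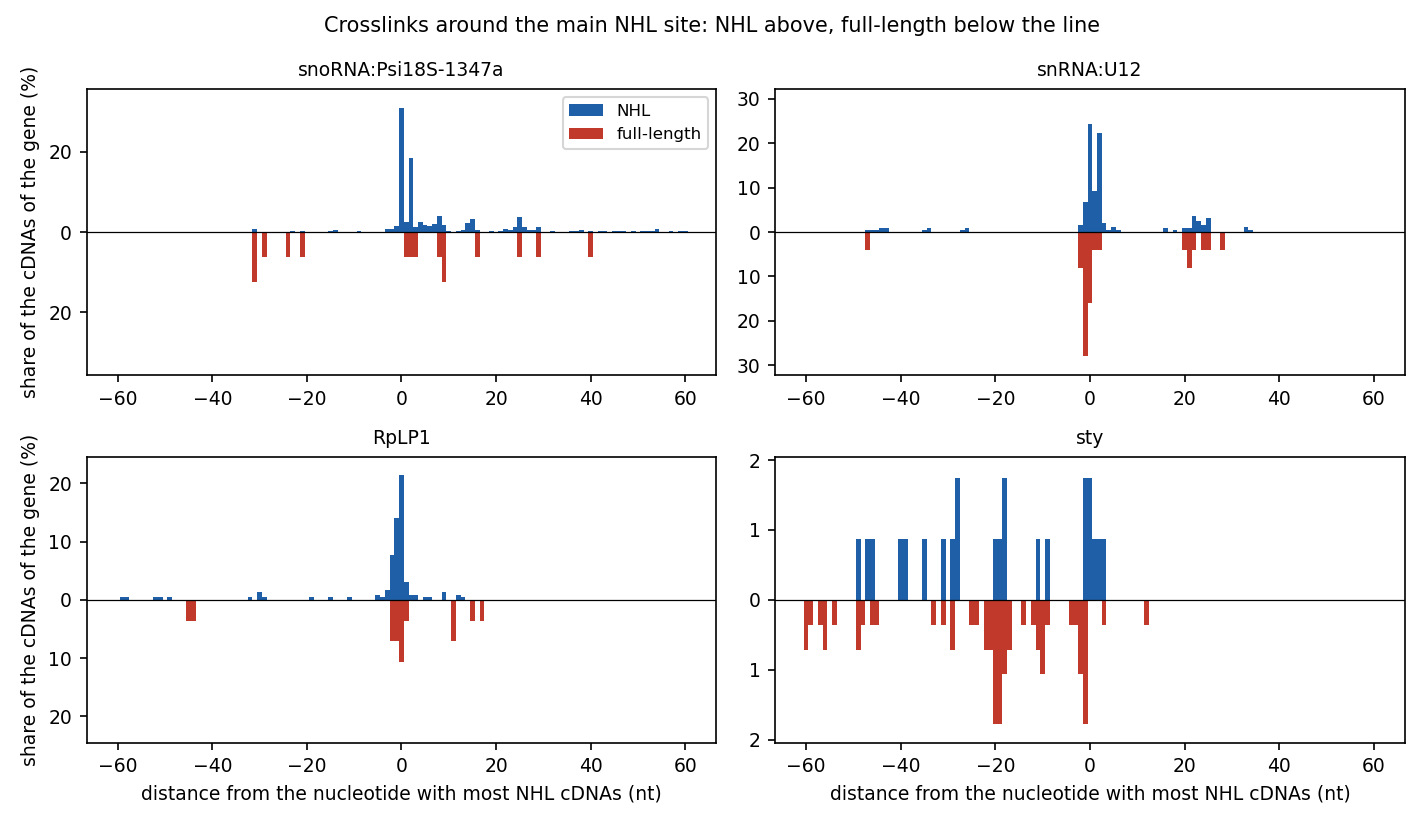
Share of the cDNAs of a gene (%) at each nucleotide, by distance from the nucleotide with most NHL cDNAs, with NHL above and full-length below the line, for 2 small RNAs and 2 mRNAs. Each panel has its own vertical scale, and for sty the centre is 1 of 8 nucleotides with 2 NHL cDNAs each. The NHL cDNAs pile up at the centre in snoRNA:Psi18S-1347a, snRNA:U12 and RpLP1, and neither bait has such a pile in sty.

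Most protein-coding genes that passed were hosts of small RNAs. Of the 10 protein-coding genes higher with the NHL domain, 8 shared over 50% of their cDNAs with another gene at the same nucleotides. FASN2, a fatty acid synthase, shared 431 of its 440 cDNAs, 420 of them with snRNA:LU. Tudor-SN, a nuclease-like protein of the RNA interference machinery, shared 91.6% of 430, most with snoRNA:Tudor-SN-a. The others were Eip63E (with snRNA:U7), dom (with several snoRNAs), tou (with snoRNA:Psi28S-1180), dachs (with lncRNA:CR43604), EcR (with tRNA genes) and RpS20 (with snoRNA:Psi28S-2562). The host RNAs Uhg2 and Uhg3, RNaseP:RNA, the catalytic RNA that trims tRNA precursors, and lncRNA:CR43604 made up the 4 other non-coding genes that passed. Only RpLP1 shared none of its cDNAs with another gene.

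A second count therefore left out small RNAs. It kept protein-coding genes, took only cDNAs at nucleotides of a single gene and over 50 nt from any crosslinked nucleotide of a small RNA gene, and scaled each library to the cDNAs so counted. This count was chosen after seeing the data. It left 1472 genes with at least 10 cDNAs, with a median log2 fold change of 0.13. With the full-length protein 1 gene was higher (0.0679%), and with the NHL domain 9 genes were higher (0.611%). At an unadjusted p below 0.05 stood 2.99% of the 1472 genes in the full-length direction and 3.67% in the NHL direction. The single gene was sty, and the 9 were 8 ribosomal protein mRNAs and eEF5. Of the 10 protein-coding genes higher with the NHL domain on the scale of all cDNAs, 2 passed again, 6 did not pass and 2 had too few cDNAs. The 2 were RpLP1, which shares no cDNAs with another gene, and the host gene RpS20. Tudor-SN turned from -3.01 to 0.13.

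The gene sty codes for Sprouty, an antagonist of receptor tyrosine kinase signalling, and lies on chromosome 3L. It had 154, 10 and 117 cDNAs with the full-length protein, 4, 11 and 100 with the NHL domain, and 2, 3 and 0 in the controls. Per 10000 mRNA cDNAs this made 131, 80.7 and 68.9 against 16.9, 24.6 and 38.9, and the lowest full-length library was above the highest NHL library. The NHL mean was 26.8 ± 11.1 (SD, n = 3) and the control mean 19.6 ± 18.2 (SD, n = 3). The log2 fold change was 1.66 ± 0.34 (SE) with an adjusted p of 6.2e-04 in this edgeR fit, and 2.03 ± 0.54 (SE) with an adjusted p of 0.0084 on the scale of all cDNAs. The call was lost without full-length replicate 1 or NHL replicate 2 in the count without small RNAs (adjusted p up to 0.14), and without full-length replicate 1 or 3 or NHL replicate 1 or 2 on the scale of all cDNAs (up to 0.25).

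Its crosslinks were scattered. The 281 full-length cDNAs marked 226 nucleotides between chr3L:3401172 and chr3L:3417958, with at most 5 cDNAs at one of them, and the 115 NHL cDNAs marked 107. The motif table of the study lists several short U-rich stretches near crosslinks of sty and 1 stretch each near those of RpLP1, RpS20 and RpS28b. They are printed here as DNA, 5′ to 3′, with the run of T in capitals, to show the kind of stretch listed for mRNAs on either side of the comparison. The study chose them for their U-rich sequence, so the shared run of T is no result.
sty: TTTTTaga
sty: TTTTaag
sty: TTTTcga
sty: TTTTaga
sty: TTTTgat
RpS20: TTTTTaca
RpLP1: TTTTTaat
RpS28b: TTTTgcg

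RpLP1, a protein of the ribosomal stalk encoded on chromosome 2L, differed most among the mRNAs. It had 17, 1 and 10 cDNAs with the full-length protein, 16, 58 and 160 with the NHL domain and 7, 3 and 4 in the controls. Per 10000 mRNA cDNAs this made 14.5, 8.07 and 5.89 against 67.8, 130 and 62.2, a ratio of means of 9.13 with no overlap. The log2 fold change was -3.13 ± 0.41 (SE) with an adjusted p of 7.7e-11 (edgeR), and the call held without any single library. The control mean of 64.5 ± 24.8 (SD, n = 3) was near the NHL mean of 86.6 ± 37.5 (SD, n = 3) and above the full-length mean of 9.48 ± 4.46 (SD, n = 3). Of its 234 NHL cDNAs, 50 marked chr2L:420660 and 51.3% lay within 5 nt of it, against 28.6% of the 28 full-length cDNAs.

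RpS20 and RpS28b, proteins of the small ribosomal subunit, came next. RpS20, encoded on chromosome 3R, kept 161 NHL and 33 full-length cDNAs once those at its snoRNA were left out, and its rates were 11.1, 32.3 and 9.43 against 46.6, 78.3 and 44.7 (log2 fold change -2.21 ± 0.44, SE). RpS28b, encoded on the X chromosome, had rates of 10.2, 40.4 and 14.7 against 50.8, 89.5 and 41.2 (log2 fold change -1.95 ± 0.42, SE). In both, full-length replicate 2 was the highest full-length library and reached close to the lowest NHL library. Adjusted p-values were 3.1e-04 and 0.0012 (edgeR).

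The other 6 mRNAs higher with the NHL domain were RpL38, RpS25, RpL11, RpL37A, RpS29 and eEF5, the last a factor of translation elongation. Their log2 fold changes lay between -1.59 and -1.96, and their adjusted p-values between 0.014 and 0.046 (edgeR). None of their groups overlapped, against 5.77% of the 1472 genes with no overlap in this direction. RpL38, for example, had rates of 8.52, 16.1 and 12.4 against 38.1, 71.6 and 22.6. In 7 of all 9 mRNAs the control mean lay between the means of the baits, and in RpS25 it was above both. In RpL37A, with a single control cDNA, it was below both. Only RpLP1 kept its call without each of the 6 libraries. In this direction 1 gene passed without NHL replicate 2, 2 genes without full-length replicate 1, and 6 each without full-length replicate 3 or NHL replicate 3.

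**Figure D4:**
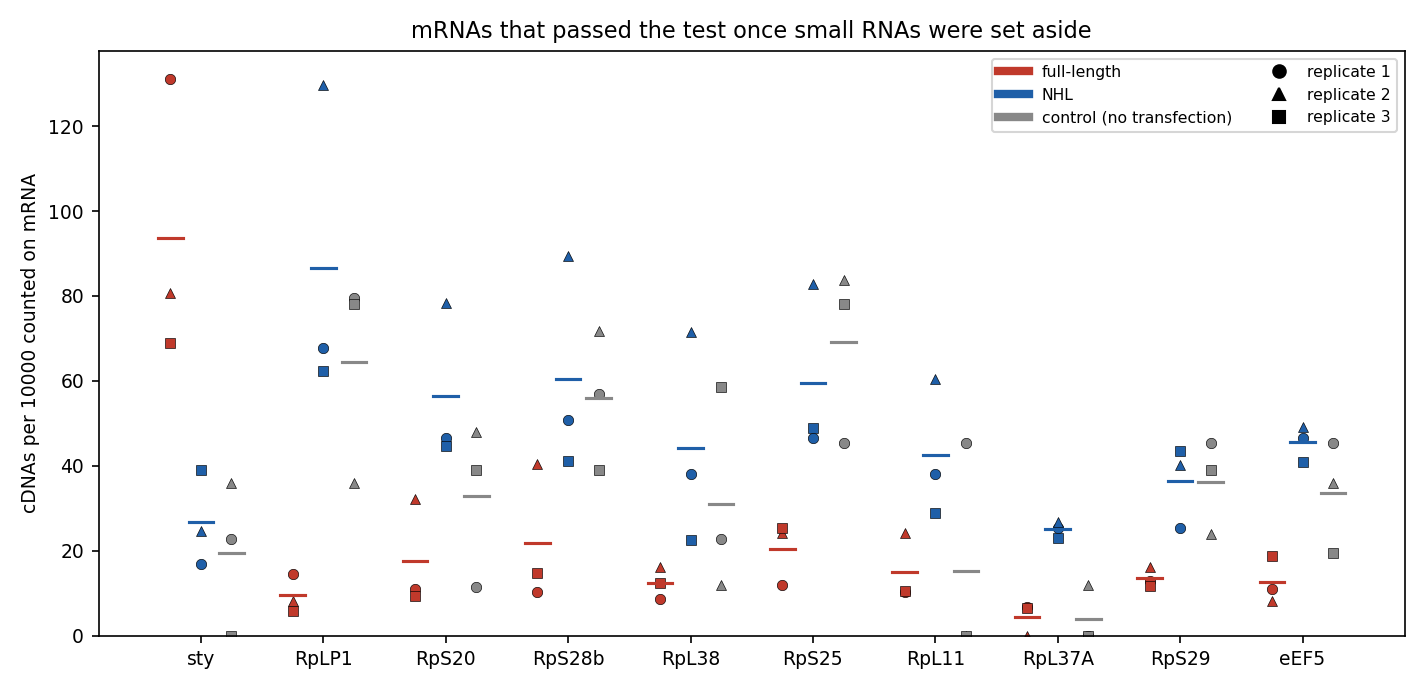
cDNAs per 10000 mRNA cDNAs of each library for the 10 mRNAs that passed in the count without small RNAs. Red, blue and grey symbols are the full-length, NHL and control libraries, shapes are replicates and bars are group means. The full-length libraries lie above the NHL libraries in sty and below them in the 9 other mRNAs, and the control mean lies between the baits in 7 of these 9.

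Among groups of mRNAs, ribosomal protein mRNAs as a whole leaned towards the NHL domain. Of 49 large-subunit genes, 4 were higher with the NHL domain and 0 with the full-length protein. Over all 1472 genes, 0.611% and 0.0679% were called in these directions. The median of the large-subunit genes was -0.87, beside 0.13 for all genes. Of 32 small-subunit genes, 4 were higher with the NHL domain and 0 with the full-length protein, and their median was -0.92. In all, 47 of 49 and 32 of 32 lay below the median of all genes. Large-subunit mRNAs took 4.68%, 8.72% and 6.08% of the mRNA cDNAs with the full-length protein, 10.2%, 13.8% and 9.74% with the NHL domain, and 11.5%, 7.67% and 10.9% in the controls. Small-subunit mRNAs took 3.35%, 6.62% and 4.36%, against 8.01%, 10.5% and 8.15%, and 7.16%, 8.86% and 7.81% in the controls. For both subunits the NHL libraries lay above the full-length libraries and overlapped with the controls, and full-length replicate 2 was again the full-length library nearest to them. Relative to the median of all genes, the medians of both subunits lay between -1.24 and -0.72 over 12 settings. These settings include leaving out each library on the scale of all cDNAs. On that scale the relative medians were -0.88 (large) and -0.92 (small) with all libraries, and -0.91 and -0.95 without full-length replicate 2. How these medians change without a library in the count without small RNAs was not tested.

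mRNAs for repressors and deadenylation factors leaned the other way, without a call. Of 13 tested, 0 passed in the edgeR fit and 2 had an unadjusted p below 0.05 (2.99% of all genes in this direction). Their median was 0.89 and 12 lay above the median of all genes. Together they took 1.99%, 1.61% and 1.91% of the mRNA cDNAs with the full-length protein, 0.805%, 1.03% and 1.44% with the NHL domain and 1.08% to 1.76% in the controls. These shares rest in large part on pAbp, a poly(A)-binding protein gene that the list also holds and its most crosslinked member. Per 10000 mRNA cDNAs pAbp had 98.8, 48.4 and 130 against 50.8, 69.4 and 86.4, and its groups overlapped. Unr, an RNA-binding protein that works with Sxl in dosage compensation, had 18, 4 and 12 cDNAs against 0, 3 and 12 (log2 fold change 1.48 ± 0.66, SE). brat, which codes for another TRIM-NHL protein, had 28, 3 and 18 against 1, 3 and 24 (1.11 ± 0.55, SE), and pum, a repressor that works with Nanos and Brat, had 11, 1 and 12 against 0, 1 and 12 (1.13 ± 0.72, SE). In these 3 genes the rates of the groups did not overlap, as in 4.01% of the 1472 genes in this direction. Per 10000 mRNA cDNAs the control means were 20.6 for Unr and 10.3 for pum, above the full-length means of 18.2 and 8.17. For brat the control mean was 11.4, between the baits. The controls held 2, 0 and 2 cDNAs of Unr, 1, 0 and 1 of pum and 3, 0 and 0 of brat. Sxl had 11, 0 and 1 cDNAs against 0, 2 and 5, and 1 library held most of its full-length cDNAs. The poly(A)-binding protein gene pAbp, host of snoRNA:Psi18S-1347a, turned from -1.11 ± 0.59 with its snoRNA to 0.49 ± 0.30 (SE) without it.

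Genes of receptor tyrosine kinase signalling had a median of 0.45 over 8 genes, of which sty passed. The ETS factor pnt had 11, 2 and 15 cDNAs against 1, 3 and 15 (log2 fold change 0.72 ± 0.67, SE), and the receptor Pvr had 13, 1 and 25 against 1, 3 and 32 (0.35 ± 0.55, SE). The call of this group thus rested on sty alone. Extracellular matrix genes also had a median of 0.45 over 9 genes, with 0 passing and 0 at an unadjusted p below 0.05 (edgeR). The papilin gene Ppn was highest among them at 1.33 ± 0.80 (SE), and the collagen IV gene vkg stood at 0.45 ± 0.47 (SE). Actin cytoskeleton genes had a median of 0.19 over 22 genes, with 0 passing and 2 at an unadjusted p below 0.05 (2.99% of all genes, edgeR), cpb and Tm1 being the highest.

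Translation factors had a median of -0.22 over 33 genes, with eEF5 passing. The elongation factor eEF1alpha1, the most crosslinked of them, had 77, 11 and 136 cDNAs against 32, 53 and 295 (log2 fold change -0.68 ± 0.30, SE) and did not pass. The medians of proteasome, chaperone, oxidative phosphorylation, chromatin, hnRNP, SR splicing factor and ER genes lay between -0.16 and 0.19, and none of their genes passed. At an unadjusted p below 0.05, 1 proteasome gene (NHL higher) and 1 chromatin gene (full-length higher) were found among these 7 groups (edgeR), beside 3.67% and 2.99% of all genes in these directions. Glycolysis genes had a median of -0.36 over 5 genes.

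**Figure D5:**
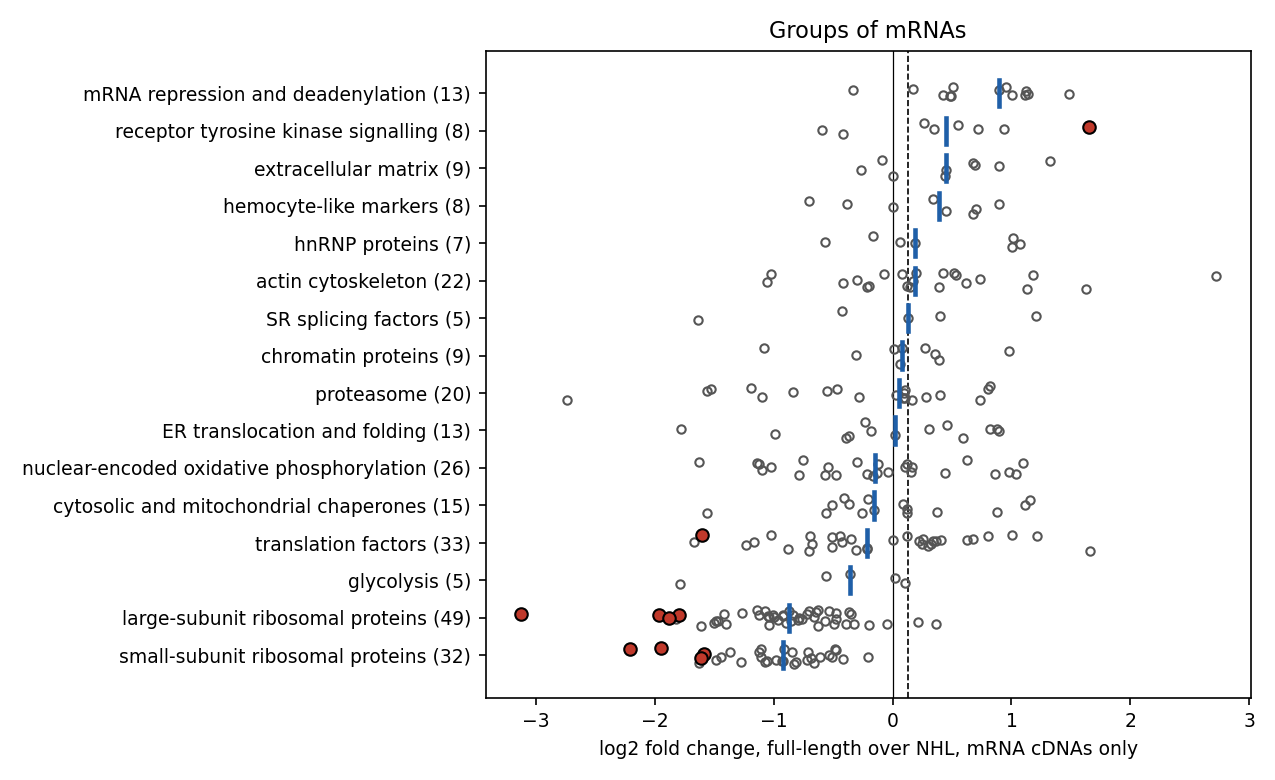
Log2 fold change (full-length over NHL, mRNA cDNAs only) of the genes in 16 groups, with the number of genes tested in brackets. Filled red symbols passed the edgeR test, blue bars are group medians, and the dashed line is the median of all 1472 genes at 0.13. Both groups of ribosomal proteins lie left of the line, and the repressors and deadenylation factors lie right of it with none past the threshold.

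Of the mRNAs higher with the full-length protein on the scale of all cDNAs, CrebA and cpb did not pass in the count without small RNAs. CrebA, an activator of secretory genes, had 29, 1 and 19 cDNAs against 1, 1 and 14, a log2 fold change of 2.15 ± 0.63 (SE; adjusted p = 0.029, edgeR). The gene cpb, for a subunit of the actin capping protein, had 5, 0 and 17 cDNAs against 0, 1 and 2 and an adjusted p of 0.038 (edgeR). Both calls were lost when any library other than full-length replicate 2 was left out, with adjusted p-values up to 0.59 and 0.47. The next genes in this direction did not pass: osa, a subunit of a chromatin remodelling complex, had 9, 0 and 6 cDNAs against 0, 0 and 2, ced-6, an adaptor for the engulfment of dead cells, had 7, 1 and 8 against 0, 0 and 3, and osi had 5, 0 and 12 against 0, 0 and 3.

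Among the mRNAs followed up in the study by binding assays or reporters, only RpS20 passed. On the scale of all cDNAs its rates were 8.85, 58.6 and 9.62 against 118, 107 and 92.7, with a log2 fold change of -2.63 ± 0.62 (SE; adjusted p = 0.0018, edgeR). This call was lost without full-length replicate 1 or 3 (adjusted p up to 0.31), and 58.3% of its cDNAs are shared with another gene. Col4a1, a chain of collagen IV, had 18, 1 and 76 cDNAs with the full-length protein and 3, 4 and 59 with the NHL domain (log2 fold change 1.02 ± 0.51, SE; adjusted p = 0.36, edgeR). The values were 1.25 ± 0.58 for lost, 0.81 ± 0.51 for LanA, 0.71 ± 0.70 for Mlc-c and 0.20 ± 0.50 for Hrb27C (log2 fold change ± SE). None of these 5 passed, and their standard errors are as large as 0.50 to 0.70. The RNA probes the study made for these 5 mRNAs are printed 5′ to 3′ to show the kind of stretch it tested, with its motif (LanA, lost and Mlc-c) or the run of U (Col4a1 and Hrb27C) in capitals.
LanA: auccuUUUUAAAacucc
lost: cccUUUUUUUAUAcacaa
Mlc-c: ggucuUUUUACAaaag
Col4a1: gccaUUUUUUaucugcca
Hrb27C: aguaaUUUUUUcuauuaaagu

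Each probe has an unbroken run of 5 to 7 U and is 37.5% to 52.4% U. Beside RpS20, log2 fold changes of further mRNAs were 1.22 ± 0.61 (spz), 0.87 ± 0.59 (Swip-1), 0.41 ± 0.51 (sqd), 0.16 ± 0.53 (eIF4A), 0.12 ± 0.51 (Hsp83), 0.12 ± 0.53 (chic), -0.09 ± 0.52 (sta), -0.12 ± 0.53 (bic) and -0.30 ± 0.52 (RpS23), each with its SE, and these 9 did not pass. For spz, the ligand of Toll, the rates per 10000 cDNAs were 11.6, 10.6 and 9.16 against 2.31, 2.52 and 5.75, with no overlap. For sqd, an hnRNP protein, they were 54.5, 31.9 and 47.6 against 34.7, 35.2 and 35.2, which overlap. The gene nos had no cDNA with either bait. The study's own lists were chosen on these samples and are no independent evidence. In the count without small RNAs (median of all genes 0.13), 1 gene with a motif was higher with the full-length protein. In the NHL direction 3 were called (63 tested, median -0.16). With other U-rich stretches, 5 genes were higher with the NHL domain (62 tested, median -0.48). Of 44 genes with neither, 0 passed (median 0.12). At an unadjusted p below 0.05 stood 2 and 1 of these (full-length and NHL direction, beside 2.99% and 3.67% of all genes, edgeR). On the scale of all cDNAs (median of all genes 0.31), the 3 lists had 1, 0 and 0 genes higher with the full-length protein. Each had 1 gene higher with the NHL domain (64, 63 and 48 tested, medians 0.17, -0.12 and 0.37).

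The full-length protein spread its crosslinks over more protein-coding genes, with the small RNAs inside host genes counted for the host. In 1000 cDNAs on protein-coding genes, 750, 675 and 734 different genes were expected for the full-length libraries and 605, 585 and 654 for the NHL libraries. The means were 719.8 ± 39.9 and 614.7 ± 35.3 genes (SD, n = 3 each) and the groups did not overlap, with p = 0.1 in a two-sided exact permutation test, the smallest it can give. The difference was 105.1 genes, and 127.7 without full-length replicate 2. The 10 highest genes held 6.09%, 9.59% and 5.92% of the cDNAs on protein-coding genes with the full-length protein and 19.7%, 17.6% and 11.4% with the NHL domain. Counted at nucleotides of a single gene, the means were 722.0 ± 24.5 and 670.5 ± 25.5 genes, and the share of the 10 highest genes was 6.89% ± 1.23 against 10.4% ± 2.32 (SD, n = 3 each), where the groups overlapped.

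Fold changes also followed the length of the gene. The 1467 mRNA genes with a known length were placed in 5 groups of equal size by the length of the gene in the annotation, introns included. The median log2 fold change was -0.45 in the shortest, then 0.04, 0.17 and 0.31, and 0.38 in the longest. Of the 294 shortest genes, 63 code for ribosomal proteins, and without them the median was -0.23. The order along the 5 groups was the same without ribosomal proteins, and its cause was not tested.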

How the data were processed

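S2 cells were measured by iCLIP2 in 9 libraries, 3 per group. The authors removed PCR duplicates, aligned each replicate separately to the fly genome of Ensembl release 98 and counted with the iCount suite (version not given in the sources used here). STAR 2.7.3a is named in the submitters' processing notes. The deposited values are counts of distinct cDNAs per crosslinked nucleotide. Their positions are counted from 0 and were written here counted from 1. The study itself set loci of snoRNAs, scaRNAs and snRNAs aside as contaminants, whereas they were kept here. The authors also deposited an FDR (a corrected p-value from the peak calling of iCount) for each nucleotide, which selected nothing here, and peaks and their clusters, which gave no value.

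cDNAs were summed per gene as annotated in the files. A nucleotide in several genes was counted for each gene in the gene test and once in the class shares, in a fixed order that puts small RNAs first. Gene symbols came from the files' gene IDs (6725 of 6780 matched), and class and gene length from the RefSeq table of Release 6 plus ISO1 MT, used for no coordinates. Genes were tested where the 6 bait libraries summed to 10 cDNAs or more, with edgeR 4.0.16 (quasi-likelihood, library size all cDNAs, Benjamini-Hochberg adjustment, threshold 0.05) in R 4.3.3. Other values were computed with Python 3.11.15, NumPy 2.4.6, pandas 2.3.3 and SciPy 1.17.1, and plots with matplotlib 3.10.9. The groups of class shares and of breadth were compared by exact permutation tests, two-sided.

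Libraries held 849 to 40032 cDNAs, and 1 cDNA was worth 0.250 to 5.32 per 10000 in the bait libraries. Intervals and floors cover counting error only, and p-values rest on the spread between these replicates. In edgeR's main fit and in the count without small RNAs, this spread was pooled over genes (infinite prior degrees of freedom). The p-values and SEs of these fits therefore do not measure the spread of a single gene. On simulated counts for this comparison, 24.9% of genes changed 4-fold (1839 genes tested) and 87.8% of those changed 16-fold (1837 genes tested) were called. Named genes were up to 12 per direction with the smallest p among those called without overlap, the 6 with the smallest p where fewer than 6 were called, those the study names, and the 2 with most cDNAs per RNA class. Others stand as members of a list or were chosen after their values were seen. Members and lists were chosen with earlier results of these data known. Alternatives were TMM, DESeq2 1.42.0, other filters and library sizes, all 9 libraries, single-gene positions, the replicate number as a block and each bait library left out. Values of 1 called gene are not reported here.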

Additional observations from a re-analysis of the deposited data

How the results depend on the processing

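Class shares kept their direction in 117 of 125 recalculations, breadth in 15 of 15, and the list medians stayed near their value in 199 of 209. For the named genes 632 of 716 kept their side of the threshold, 73 lost and 9 gained a call, and 2 turned: Tudor-SN to 0.40 with single-gene positions and 0.13 in the count without small RNAs, where its snoRNA is left out by construction. Genes higher with the full-length protein numbered 3, against 1 each with TMM, DESeq2, no filter, single-gene positions, the replicate block and the count without small RNAs, 30 with TMM and edgeR's filter together, and 0 to 3 with a library left out. Genes higher with the NHL domain numbered 47, against 25 with DESeq2, 7 with single-gene positions, 26 with TMM and edgeR's filter, 9 without small RNAs, and 4 to 68 with a library left out. Where 0 genes were higher with the full-length protein, 53, 89 and 73 had an unadjusted p below 0.05 (without full-length replicate 1, full-length replicate 3 and NHL replicate 2, edgeR). In the count without small RNAs the ranges were 0 to 1 and 1 to 12. TMM with edgeR's filter and the count without small RNAs were added after seeing the data. Same-numbered libraries deviated together with correlations of -0.006, 0.027 and 0.103, and other pairs of libraries with -0.065 to 0.021. With counts this sparse, low correlations cannot tell whether the numbers pair the samples. With the replicate block 1 and 32 genes were called. Class differences near 0 changed sign: scaRNAs (-0.0509 to 0.0770 percentage points), antisense RNA (-0.000169 to 0.0240) and pseudogenes (-0.00688 to 0.00745) with a library left out, and pseudogenes also when a position counted for each gene (-0.0219) or once per crosslinked position (-0.00237). List medians relative to all genes ranged, with a library left out, from -0.97 to 0.56 (chaperones), -0.82 to -0.038 (glycolysis), 0.16 to 0.58 (hnRNP proteins), 0.46 to 1.49 (repression and deadenylation), -0.31 to -0.072 (study motif list) and -0.68 to -0.063 (study U-rich list), and the study motif list stood at -0.29 in the count without small RNAs. The causes of these changes were not tested. Transcript parts and motifs at crosslinks were not run because no genome of the files' build was used here. Depth limits the rest: 61.1% of the tested genes had no cDNA in full-length replicate 2, and 3 libraries per group cannot give an exact permutation p below 0.1.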
